A study of Mus musculus with 16 samples.

Results

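The genes described here are chemokines and chemokine receptors: 39 genes of the CC, CXC and CX3C classes, 27 of them ligands and 12 receptors. They were chosen by name, and each was measured by the array probe sets that carry its symbol and no other. Of the 39, 38 had such a probe set, 59 probe sets in all; the probe set of Ccl19 carried several symbols and was not used. One probe set stood for each gene, the one with the highest mean over all arrays, and 33 of the 38 genes were above the median of the array on at least 4 of the 16 arrays and were tested. The 5 others, Ccl20, Cxcl5, Ccr9, Ccr10 and Cxcr6, were too dim to test. All 18193 genes with a probe set of their own were handled in the same way, and 11908 of them were tested.

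The study measured macrophages sorted from perigonadal fat of mice aged 12 to 14 weeks on 16 Affymetrix arrays, after 2 rounds of RNA amplification. Both genotypes were on the C57BL/6J background: lean mice were Lep +/+ and obese mice were the leptin-deficient Lep ob/ob, and no diet or drug was given in the labels. FB cells were F4/80+, CD11b+ and CD11c-, and FBC cells were F4/80+, CD11b+ and CD11c+ by the descriptions, although the cell type field of all 8 FBC samples ends in CD11c-+; each population had 4 arrays from lean and 4 from obese mice, and 4 mice of each genotype gave both. The ob/ob model removes leptin from every cell from birth, so that obesity and the absence of leptin cannot be told apart here. Levels below are quantile-normalized log2(intensity + 16), and differences are on that scale, where the added 16 makes the change of a dim gene look smaller. The 5 genes too dim to test had group means of 4.23 to 5.86, under the array median of 5.87. A gene passed when its adjusted p from limma, adjusted by Benjamini-Hochberg over all genes tested, was under 0.05.

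Chemokines are small secreted proteins that bind G protein-coupled receptors on leukocytes and set the direction of their migration. The inflammatory ligands are induced in macrophages and stromal cells and draw monocytes, neutrophils, eosinophils and T cells, while the homeostatic ligands, such as Cxcl12 and Cxcl13, are made by stromal cells and place lymphocytes and progenitors in tissues. In fat, Ccl2 and its receptor Ccr2 are best known for bringing monocytes into the tissue of obese animals. Atypical receptors, here Ackr3, bind chemokines and remove them without the usual G protein signal.

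Chemokine genes lie in clusters, and several members described below are neighbours with at most 2 other coding genes between them: Ccl2, Ccl7, Ccl11, Ccl12 and Ccl8; Ccl5, Ccl9, Ccl6, Ccl3 and Ccl4; Cxcl5, Cxcl3, Cxcl1 and Cxcl2; Cxcl9, Cxcl10 and Cxcl11; and Ccl22, Cx3cl1 and Ccl17. RefSeq lists Cxcl11 as a transcribed pseudogene in this reference, so its values are those of a transcript. RefSeq promoters of GRCm38.p6 (250 bases before to 50 after the start) were at hand for 29 of the 39 genes. On both strands, the NF-kappaB consensus was found in 8 of them (Ccl20, Ccl9, Ccr3, Ccr6, Cxcl1, Cxcl10, Cxcl2 and Cxcl3) and in 4.51% of 32851 promoters; the repeat bound by interferon regulatory factors (GAAA any 2 bases, GAAA) was found in 3 (Ccl19, Cxcl10 and Cxcl14) and in 3.44%. The bases before the start are shown for 3 neighbours of the neutrophil group, of which Cxcl3 passed a test below and Cxcl1 and Cxcl2 did not, and for Cxcl10, which held both motifs. They are Cxcl1 at chr5:90891125-90891244, Cxcl2 at chr5:90903779-90903898 and Cxcl3 at chr5:90785981-90786100, all on the plus strand, and Cxcl10 at chr5:92348890-92349129 on the minus strand. Capitals mark the NF-kappaB matches, which in the first 3 genes are overlapping matches of 10 bases on both strands, and in Cxcl10 also the match of the GAAA repeat, the first run of capitals. A match is a description of the letters and not a bound site.
Cxcl1: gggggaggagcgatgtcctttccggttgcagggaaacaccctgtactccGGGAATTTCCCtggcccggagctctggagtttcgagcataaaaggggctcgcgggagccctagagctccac
Cxcl2: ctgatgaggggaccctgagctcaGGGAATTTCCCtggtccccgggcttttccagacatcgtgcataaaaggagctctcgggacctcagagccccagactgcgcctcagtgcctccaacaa
Cxcl3: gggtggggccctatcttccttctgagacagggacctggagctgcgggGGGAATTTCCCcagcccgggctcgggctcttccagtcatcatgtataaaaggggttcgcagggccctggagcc
Cxcl10: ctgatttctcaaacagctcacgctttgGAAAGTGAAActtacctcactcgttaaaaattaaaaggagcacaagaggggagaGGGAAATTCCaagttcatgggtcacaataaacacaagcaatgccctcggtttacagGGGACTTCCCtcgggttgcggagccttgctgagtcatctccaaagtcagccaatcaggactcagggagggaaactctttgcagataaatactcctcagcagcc

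The sort markers were present on all arrays: Adgre1, which encodes F4/80, lay between 11.94 and 13.69, Itgam, which encodes CD11b, between 6.84 and 8.39, and Itgax, which encodes CD11c, exceeded its FB level in FBC by 1.49 in lean mice (adjusted p by limma 0.0213) and by 2.20 in obese ones (0.000111). The 2 lean arrays numbered 4 stood apart from the other lean arrays in several of the genes. Together with obese FB array 4 they also had actin 3'/5' ratios of 45.0 to 53.3, against 1.15 to 10.9 on the 13 other arrays. Lean FB array 4 was low in Ccl2, Ccl3, Ccl7, Ccl8, Ccl11, Ccl12, Cxcl12 and Ackr3, and its level of Ccr3, the eotaxin receptor of eosinophils, was 9.43, while lean FB arrays 1 to 3 lay at 5.31 to 5.86. On the same array the eosinophil marker Siglecf was at 11.98, and on the other 15 arrays it lay between 5.77 and 9.65, while Prg2 and Epx were below the array median on every array. The part that RNA quality and eosinophils had in these values was not tested, and results are given below with and without these arrays. The map of all 38 genes by array shows the lean arrays numbered 4 as paler or blue in many rows of the lean blocks, but not in Ccl5, Ccl17 and Ccl22.

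**Figure D1:**
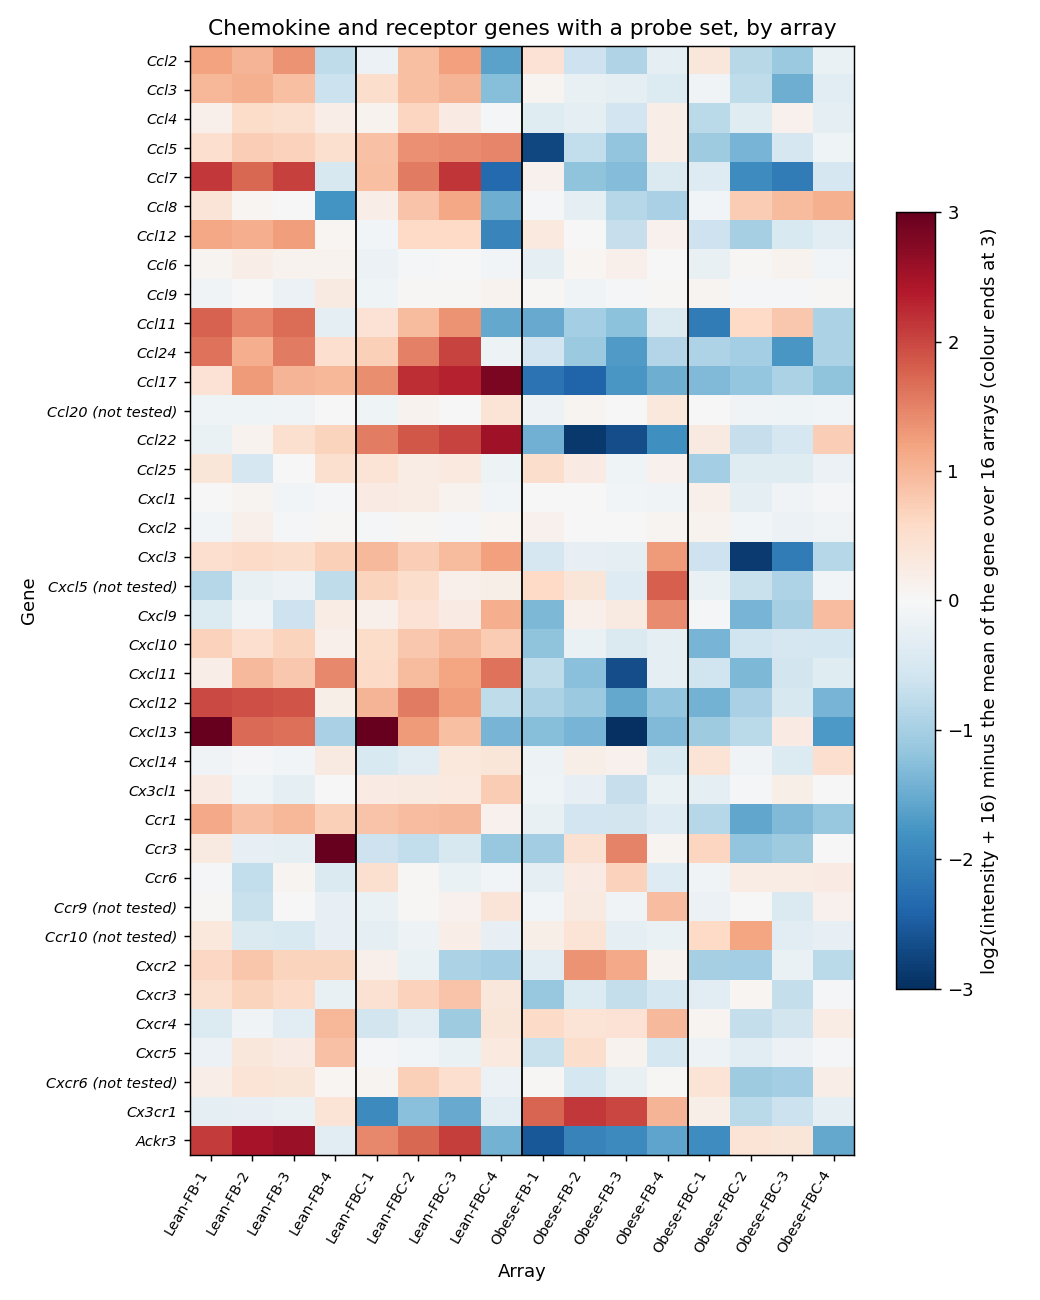
Heat map of the 38 chemokine and receptor genes (rows) on the 16 arrays (columns, grouped by the black lines into FB and FBC of lean mice and then of obese mice); colour is log2(intensity + 16) minus the gene's mean over the 16 arrays, and ends at 3. Ccl17, Ccl22, Cxcl12, Cxcl13 and Ackr3 are mostly red in lean and blue in obese arrays, and Cx3cr1 is reddest in obese FB.

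In FB macrophages, obese mice had lower levels of most chemokine-system genes that differed. Of the 33 tested, 11 fell and 1 rose, while 5.89% of all genes tested passed (4.07% lower and 1.81% higher); 16 had an unadjusted p under 0.05, as did 20.2% of all genes. Those that fell were the ligands Ccl5, Ccl24, Ccl17, Ccl22, Cxcl10, Cxcl11, Cxcl12 and Cxcl13 and the receptors Ccr1, Cxcr3 and Ackr3; the gene that rose was Cx3cr1. Differences ran from -3.72 for Ackr3 to 1.80 for Cx3cr1, and the median of the 33 was -0.65, beside 0.03 over all genes tested. In all 12 of these genes, and in Ccl11, the lean and obese arrays did not overlap, 13 of 33 genes beside 11.8% of all genes tested.

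Among the inflammatory CC ligands, 1 of 7 passed in FB. Ccl5 (RANTES), which draws T cells and monocytes, measured 10.92, 11.15, 11.09 and 10.89 on the lean FB arrays and 7.69, 9.68, 9.22 and 10.61 on the obese ones. The obese arrays were spread over almost 3 log2 units and the highest lay just under the lowest lean array. Its difference was -1.71 ± 0.43 (SE; adjusted p = 0.0273). The call ended without any 1 of lean FB arrays 1, 2 and 3 or obese FB arrays 1 and 3, with adjusted p up to 0.0854, and also with median centring (0.0527) and with only the groups compared in the fit (0.0859). The other 6 were also lower on average in obese FB, but did not pass: Ccl2, the main ligand of Ccr2, by -1.04 (95% interval -2.24 to 0.16), Ccl3 by -0.79, Ccl4 by -0.61, Ccl7 by -2.06 (-3.74 to -0.38; adjusted p = 0.145), Ccl8 by -0.20 and Ccl12 by -0.96.

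Ccl2, Ccl3, Ccl7 and Ccl12 had 1 pattern in lean FB, high on arrays 1 to 3 and low on array 4. Ccl7 measured 11.69, 11.28, 11.62 and 9.08 on the lean FB arrays and 9.68, 8.35, 8.27 and 9.13 on the obese ones. Only lean array 4 fell within the obese range. Without both lean arrays numbered 4, an alternative chosen after seeing the data, Ccl2 (-1.51, adjusted p = 0.0132), Ccl3 (-1.18, 0.00545), Ccl7 (-2.64, 0.000735) and Ccl12 (-1.23, 0.00258) passed as lower. Over all alternatives their adjusted p ran up to 0.568, 0.615, 0.323 and 0.454.

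Of the 4 ligands of eosinophils and myeloid cells, 1 passed. Ccl24 (eotaxin-2), which draws eosinophils through Ccr3, measured 9.24, 8.69, 9.16 and 8.11 on the lean FB arrays and 7.04, 6.49, 5.91 and 6.74 on the obese ones. The lowest lean array lay above the highest obese array, a difference of -2.26 ± 0.40 (adjusted p = 0.00256). Ccl11 (eotaxin-1) measured 7.96, 7.67, 7.88 and 5.92 in lean FB and 4.68, 5.17, 4.95 and 5.77 in obese FB. The obese FB values were all under the array median. The groups did not overlap, but lean array 4 lay next to the obese arrays and the difference of -2.21 ± 0.66 did not pass (adjusted p = 0.0584; -2.69 and 0.0136 without lean FB array 4, and 0.0000947 to 0.164 over the alternatives). Ccl6 and Ccl9, made in large amounts by myeloid cells, had group means of 13.24 to 13.44 and 13.23 to 13.27 over the 4 groups. These lie near the highest normalized value of 14.09, and whether such values can register a rise was not tested. Between obese and lean mice, a dimmer probe set of Ccl9 differed by -0.13 in FB and -0.48 in FBC. That of Ccl6 differed by -0.10 and 0.10, and neither passed.

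The ligands of Ccr4, Ccl17 and Ccl22, which dendritic cells and some macrophages make, both fell in obese FB. Ccl17 measured 8.33, 9.17, 8.91 and 8.88 on the lean FB arrays and 5.68, 5.50, 6.15 and 6.44 on the obese ones. All obese arrays lay at least 1.5 log2 units under the lean arrays, a difference of -2.88 ± 0.28 (adjusted p = 1.27e-05). Obese FB arrays 1 and 2 were under the array median of 5.87, where no detection call says whether Ccl17 was above background, so no fold is given. Ccl22 measured 8.57, 8.88, 9.27 and 9.45 in lean FB and 7.33, 5.88, 6.11 and 6.93 in obese FB. Again no array of one group reached the other, with a difference of -2.48 ± 0.36 (adjusted p = 0.000586). Ccl25, known from thymus and gut, differed by 0.10 ± 0.24.

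The neutrophil ligands gave 0 of 3 passing in FB by limma, 0 of them at an unadjusted p under 0.05. Cxcl1 differed by -0.04 (95% interval -0.34 to 0.26) and Cxcl2 by 0.05 (-0.23 to 0.33). The other tested probe sets of Cxcl1, which were dimmer, differed by -0.45 and -0.57 (adjusted p over all probe sets 0.361 and 0.144), below that interval. The probe sets that stood for Cxcl1 and Cxcl2 lay near the top of the scale. Cxcl1 was between 13.34 and 13.86 and Cxcl2 between 13.69 and 14.02 on the 16 arrays. The highest normalized value of any probe set was 14.09. Whether values so near the upper end can register a rise was not tested. Cxcl3 differed by -0.52 ± 0.43, with lean FB arrays at 10.89, 10.97, 10.92 and 11.11 and obese ones at 9.88, 10.16, 10.11 and 11.67. Obese FB array 4 was above every lean array and the other 3 obese arrays were below them.

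Of the ligands of Cxcr3, which are induced by interferon, 2 of 3 fell in FB. Cxcl10 measured 12.58, 12.40, 12.55 and 12.03 on the lean arrays and 10.68, 11.70, 11.47 and 11.63 on the obese ones. The groups did not overlap, with a difference of -1.02 ± 0.24 (adjusted p = 0.0203), and the call ended without any 1 of lean FB arrays 1, 2 and 3 or obese FB array 1 (adjusted p 0.0604 to 0.0724) and with median centring (0.0620). Cxcl11 measured 7.88, 8.65, 8.48 and 9.13 in lean FB and 6.93, 6.43, 5.02 and 7.42 in obese FB, again without overlap, a difference of -2.09 ± 0.41 (adjusted p = 0.0060). Its value on obese FB array 3 was under the array median. A dimmer probe set of Cxcl11 differed by -0.48 ± 0.39 and did not pass. Cxcl9, the remaining ligand of the cluster, differed by 0.35 (95% interval -0.73 to 1.42).

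Among the homeostatic ligands, 2 of 4 fell in FB. Cxcl12 (SDF-1), the ligand of Cxcr4 and Ackr3, measured 11.02, 10.98, 10.94 and 9.22 on the lean arrays and 8.11, 7.95, 7.52 and 7.86 on the obese ones. Lean array 4 was lower than its group but still above every obese array, and the difference was -2.68 ± 0.46 (6.41-fold; adjusted p = 0.00205). A second tested probe set moved the same way (-2.91), and another, too dim to test, differed by 0.05.

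Cxcl13, which draws B cells through Cxcr5, had the widest spread of the 33 genes, with a pooled within-group SD of 1.58. It measured 11.97, 9.28, 9.24 and 6.63 in lean FB and 6.32, 6.20, 4.22 and 6.26 in obese FB. The lowest lean array lay just above the highest obese one, and obese array 3 was under the array median. The difference was -3.53 ± 0.96 (adjusted p = 0.0395), and it lost its call without any single FB array other than lean array 4 (adjusted p up to 0.125). The call also ended with no filter on dim genes (0.0544), the mean of its probe sets (0.0863), a pseudocount of 1 (0.0503) or only the groups compared (0.0667); its second probe set differed by -0.93 and did not pass. Cxcl14 (-0.08 ± 0.24) and Cx3cl1 (-0.27 ± 0.19), the ligand of Cx3cr1, did not pass.

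Of the receptors in FB, 1 of 3 tested CC receptors and 3 of 6 CXC, CX3C and atypical receptors passed. Ccr1, the receptor of Ccl3 and Ccl5 on monocytes and macrophages, measured 11.81, 11.56, 11.67 and 11.41 on the lean arrays and 10.46, 10.11, 10.13 and 10.30 on the obese ones. Both groups were tight and nearly a log2 unit apart, with a difference of -1.36 ± 0.20 (adjusted p = 0.000859). Its second probe set moved further (-1.97).

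Cxcr3, the receptor of Cxcl9, Cxcl10 and Cxcl11, measured 8.36, 8.53, 8.44 and 7.64 in lean FB and 6.73, 7.45, 7.15 and 7.35 in obese FB. The lowest lean array was 4, just above the obese range, and the difference was -1.07 ± 0.23 (adjusted p = 0.0115; 0.0504 without lean FB array 2). Ackr3 (formerly CXCR7), which scavenges Cxcl12, measured 9.51, 9.89, 10.02 and 7.09 in lean FB and 4.88, 5.42, 5.51 and 5.84 in obese FB. Even lean array 4 stood above all obese arrays, and the difference of -3.72 ± 0.75 (adjusted p = 0.00708) was the largest of the 33 in FB. Ackr3 was below the array median on all obese FB arrays, where no detection call says whether it was above background, so no fold is given.

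Cx3cr1, the fractalkine receptor of monocytes and resident macrophages, was the 1 gene that rose. It measured 8.75, 8.79, 8.83 and 9.44 on the lean FB arrays and 10.77, 11.15, 11.02 and 10.06 on the obese ones. The groups did not overlap, with a difference of 1.80 ± 0.32 (3.48-fold; adjusted p = 0.00300). Ccr3 (-0.65), Ccr6 (0.35), Cxcr2 (-0.13), Cxcr4 (0.56) and Cxcr5 (-0.45) did not pass.

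**Figure D2:**
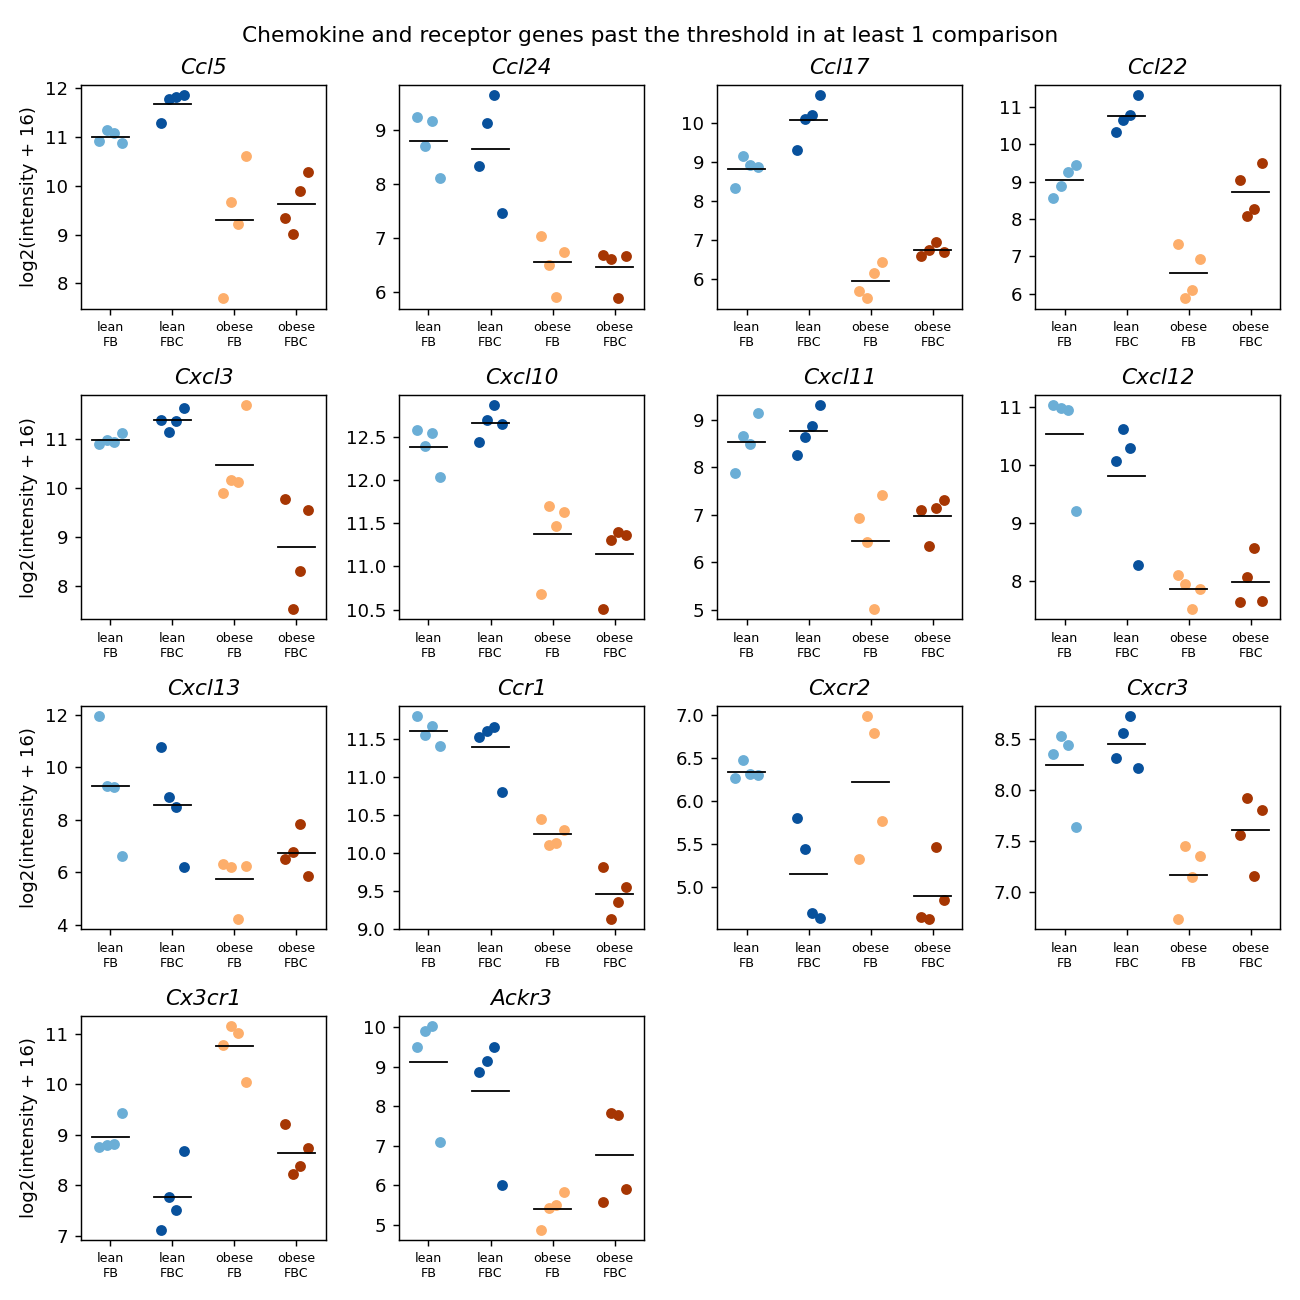
Level of the 14 genes that passed in at least 1 comparison, as log2(intensity + 16), in each group of 4 arrays; points are arrays in the order of their numbers and lines are group means. Ccl17 and Ccl22 separate lean from obese arrays in both populations, and lean array 4 is the low point in Cxcl12, Cxcl13 and Ackr3.

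In FBC macrophages, 10 of the 33 genes fell in obese mice and 0 rose, while 14.1% of all genes tested passed (5.95% lower and 8.12% higher); 16 had an unadjusted p under 0.05, beside 28.9% of all genes. The 10 were Ccl5, Ccl24, Ccl17, Ccl22, Cxcl3, Cxcl10, Cxcl11, Cxcl12, Ccr1 and Cxcr3. The median difference of the 33 was -0.68, beside 0.08 over all genes, and in 11 of the 33 the groups did not overlap, beside 20% of all genes tested. Of the genes that fell, 9 fell in both populations, which came from the same lean and obese mice. How many of all genes tested fell in both was not counted, so this sharing is not shown to be particular to these genes.

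Ccl5 measured 11.29, 11.78, 11.82 and 11.86 on the lean FBC arrays and 9.34, 9.0, 9.89 and 10.28 on the obese ones. The gap between the groups was wider than in FB, and the difference was -2.06 ± 0.43 (adjusted p = 0.00532). The other inflammatory CC ligands did not pass: Ccl2 differed by -0.54, Ccl3 by -0.95, Ccl4 by -0.56, Ccl7 by -1.78, Ccl8 by 0.49 and Ccl12 by -0.39. Lean FBC array 4 was again the lowest of its group in Ccl2, Ccl3, Ccl7, Ccl8 and Ccl12, and without both lean arrays numbered 4 Ccl3 (-1.45), Ccl7 (-2.73) and Ccl12 (-0.97) passed as lower, with adjusted p of 0.00161, 0.000751 and 0.0135 (up to 0.388, 0.346 and 0.908 over the alternatives).

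Ccl24 measured 8.33, 9.12, 9.64 and 7.46 in lean FBC and 6.68, 6.60, 5.87 and 6.67 in obese FBC. The groups did not overlap, with a difference of -2.18 ± 0.40 (adjusted p = 0.00177), close to that in FB. Ccl11 measured 6.62, 7.13, 7.54 and 4.67 in lean FBC and 4.09, 6.80, 7.00 and 5.24 in obese FBC. Here lean array 4 was low, obese arrays 2 and 3 were within the lean range, and the difference of -0.71 (95% interval -2.10 to 0.69) did not pass.

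Ccl17 measured 9.30, 10.11, 10.21 and 10.72 on the lean FBC arrays and 6.58, 6.75, 6.94 and 6.70 on the obese ones. The obese arrays lay within 0.4 of each other and far under the lean arrays, and the difference of -3.34 ± 0.28 (10.1-fold; adjusted p = 2.03e-06) was the largest of the 33 in FBC. Ccl22 measured 10.32, 10.64, 10.80 and 11.32 in lean FBC and 9.04, 8.08, 8.27 and 9.50 in obese FBC, with no overlap and a difference of -2.05 ± 0.36 (adjusted p = 0.00129). Ccl25 differed by -0.68 ± 0.24 (adjusted p = 0.0683).

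Cxcl3, a neutrophil ligand that signals through Cxcr2, passed in FBC. It measured 11.38, 11.13, 11.36 and 11.63 on the lean FBC arrays and 9.77, 7.53, 8.29 and 9.54 on the obese ones. The lean arrays were tight and the obese ones spread over more than 2 log2 units below them, with a difference of -2.59 ± 0.43 (6.02-fold; adjusted p = 0.000802). Its neighbours with the same promoter motif, Cxcl1 (-0.19) and Cxcl2 (-0.06), did not pass.

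Cxcl10 measured 12.44, 12.69, 12.87 and 12.65 in lean FBC and 10.51, 11.30, 11.40 and 11.37 in obese FBC. The groups were about a log2 unit apart at their nearest points, and the difference was -1.52 ± 0.24 (adjusted p = 0.00065). Cxcl11 measured 8.25, 8.64, 8.86 and 9.30 in lean FBC and 7.09, 6.33, 7.13 and 7.32 in obese FBC, without overlap and with a difference of -1.79 ± 0.41 (adjusted p = 0.00922). Its dimmer probe set differed by -0.90 ± 0.39 in FBC and did not pass (adjusted p by limma over all probe sets 0.146). Cxcl9 differed by -0.85 (95% interval -1.92 to 0.22).

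Cxcl12 measured 10.07, 10.61, 10.30 and 8.28 in lean FBC and 7.64, 8.07, 8.57 and 7.66 in obese FBC. Lean array 4 fell below obese array 3, so the groups overlapped, and the difference was -1.83 ± 0.46 (adjusted p = 0.0141; 0.0527 without lean FBC array 2, and -2.33 with 1.09e-05 without both lean arrays numbered 4). Cxcl13 measured 10.78, 8.87, 8.48 and 6.19 in lean FBC and 6.52, 6.77, 7.83 and 5.87 in obese FBC, where the groups overlapped and -1.83 ± 0.96 did not pass.

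Ccr1 measured 11.53, 11.61, 11.66 and 10.81 on the lean FBC arrays and 9.82, 9.13, 9.36 and 9.56 on the obese ones. The lowest lean array, number 4, still lay about a log2 unit above the highest obese array, and the difference was -1.94 ± 0.20 (3.83-fold; adjusted p = 1.07e-05; -3.36 for its second probe set). Cxcr3 measured 8.31, 8.56, 8.73 and 8.21 in lean FBC and 7.56, 7.92, 7.15 and 7.80 in obese FBC. The groups did not overlap, with a difference of -0.84 ± 0.23 (adjusted p = 0.0240), a call that ended without any 1 of lean FBC arrays 2 and 3 or obese FBC arrays 1 and 3 (adjusted p 0.0508 to 0.0724) or under a 2-fold minimum.

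Cx3cr1 and Ackr3, which passed in FB, did not pass in FBC. Cx3cr1 measured 7.13, 7.78, 7.52 and 8.69 on the lean FBC arrays and 9.22, 8.23, 8.39 and 8.73 on the obese ones. Lean array 4 reached into the obese range, and the difference was 0.86 (95% interval 0.18 to 1.54; adjusted p = 0.0835). Ackr3 measured 8.87, 9.15, 9.50 and 6.01 in lean FBC and 5.57, 7.84, 7.79 and 5.90 in obese FBC, with lean array 4 among the obese arrays and a difference of -1.61 (-3.20 to -0.02; adjusted p = 0.167). Without both lean arrays numbered 4 the filter was applied anew, and 11723 genes were tested. Then 17 chemokine-system genes passed in FBC beside 17.9% of all genes, Cx3cr1 (1.16, adjusted p = 0.00933), Ackr3 (-2.40, 0.0030), Cxcl13 (-2.63, 0.0215) and Ccl25 (-0.79, 0.0319) among them. Without lean FBC array 4 alone 16 passed, for which no share over all genes is given. In FB, 18 passed without both arrays, beside 16.8% of all genes.

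**Figure D3:**
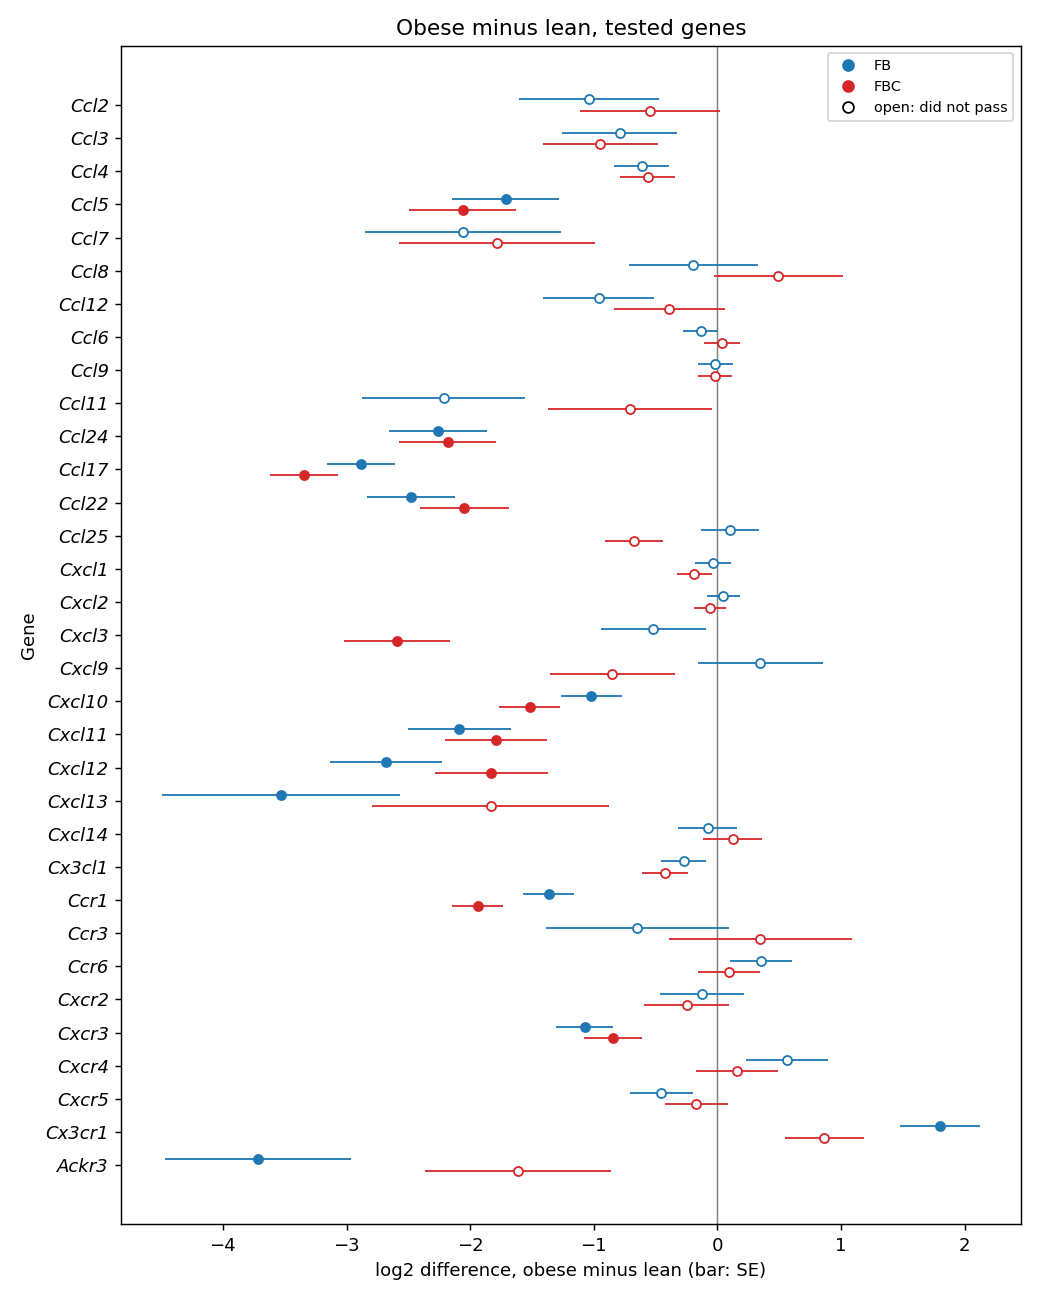
Difference between obese and lean mice in log2(intensity + 16) for the 33 tested genes, in FB (blue) and FBC (red); bars are standard errors and filled points passed an adjusted p of 0.05. Most filled points lie left of 0, and Cx3cr1 in FB is the 1 filled point to the right.

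Whether the obesity difference itself differed between FBC and FB was tested by the interaction in the same limma model. Of the 33 genes, 0 passed and 2 had an unadjusted p under 0.05, while 0.16% of all genes passed and 13.2% had such a p. The largest interaction with an unadjusted p under 0.05 was that of Cxcl3 (-2.07 ± 0.60; adjusted p = 0.164), followed by Ccl25 (-0.78; adjusted p = 0.332). For Ackr3 it was 2.11 (95% interval -0.15 to 4.36), for Cx3cr1 -0.93 (-1.90 to 0.03) and for Cxcl13 1.69 (-1.18 to 4.57), so that a call in one population alone is not shown to be a difference between them. With the replicate block Cxcl3 passed (-2.07, adjusted p = 0.0460), and with array weights Cxcl3 and Cx3cr1 passed (adjusted p = 0.0285 and 0.0121, up to 0.328 and 0.579 over the alternatives). Of the same-numbered obese arrays, which that block joins, only those of number 1 deviated together (correlation 0.31).

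In lean mice, FBC against FB gave 0 of 33 genes passing by limma, while 0.193% of all genes passed; 7 genes had an unadjusted p under 0.05, as did 8.2% of all genes. The smallest adjusted p were those of Ccl22 and Ccl17, whose levels on the lean arrays, given above, were higher on every FBC array than on any FB array. Ccl22 differed by 1.73 ± 0.36 (adjusted p = 0.0570) and Ccl17 by 1.26 ± 0.28 (adjusted p = 0.0762). With the array number as a replicate block both passed (adjusted p = 0.00307 and 0.0311, beside 0.428% of all genes). Over the alternatives their adjusted p ran up to 0.181 and 0.281. Deviations of same-numbered lean FB and FBC arrays correlated at 0.14 to 0.60, but same-numbered arrays of different mice reached 0.28. The 0.60 was that of the arrays numbered 4, both with a high actin ratio (53.3 and 48.0). These correlations therefore do not show that a number is 1 mouse. In all, 8 of the 33 genes did not overlap between the populations, beside 5.63% of all genes tested. The other 6, Ccl5 (0.68), Ccl6 (-0.20), Cxcl3 (0.40), Cxcr2 (-1.20), Cx3cr1 (-1.17) and Ccr3 (-1.64), did not pass either. Cxcr2 was above the array median on 4 lean FB and 0 lean FBC arrays, so the group where it was high was enough to let it into the test. Ccr3 was above it on 1 lean FB array, the outlying array 4, and on 0 lean FBC arrays. Both are counted among the 8. Leaving out lean FBC array 1 gave 1 call, Ccl17 (1.52, adjusted p = 0.0211).

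In obese mice, FBC against FB gave 5 of 33 genes passing, 1 higher and 4 lower, while 8.39% of all genes passed (5.11% higher and 3.28% lower); 9 had an unadjusted p under 0.05, beside 25.1% of all genes. Ccl22 was higher in FBC, and Cxcl3, Ccr1, Cxcr2 and Cx3cr1 were lower. Of these, Cxcr2 was above the array median only on FB arrays, so it entered the test only through the population where it was high. The median of the 33 was -0.04, beside 0.08 over all genes, and in 7 of the 33 the groups did not overlap, beside 17.7% of all genes tested. These comparisons share their obese arrays with those of obese against lean mice.

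Ccl22, with obese levels of 5.88 to 7.33 in FB and 8.08 to 9.50 in FBC, was higher by 2.16 ± 0.36 (4.46-fold; adjusted p = 0.00146). Cx3cr1, at 10.06 to 11.15 in obese FB and 8.23 to 9.22 in obese FBC, was lower by 2.11 on the log2 scale (difference -2.11 ± 0.32; adjusted p = 0.000817). In both genes the 2 obese groups were separated on all arrays. These 2 calls held in all 25 alternatives.

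The 3 other calls, Cxcl3, Ccr1 and Cxcr2, each ended without some single arrays and under some other settings. Cxcl3 differed by -1.67 ± 0.43 (adjusted p = 0.0226; 0.0737 without obese FB array 4, 0.0787 and 0.0658 without obese FBC arrays 2 and 3; 0.0780 with only the groups compared, 0.0548 without the arrays of high actin ratio and 0.0718 with that ratio as a covariate), and Ccr1 by -0.78 ± 0.20 (adjusted p = 0.0258; 0.0552 to 0.0939 without obese FB arrays 1 or 4 or obese FBC arrays 2 or 3; 0.0519 with cyclic loess, and under a 2-fold minimum). Cxcr2, the receptor of Cxcl1, Cxcl2 and Cxcl3 on neutrophils, measured 5.33, 6.99, 6.79 and 5.76 in obese FB and 4.64, 4.62, 5.46 and 4.85 in obese FBC. The groups overlapped at FBC array 3, and the difference was -1.32 ± 0.34 (adjusted p = 0.0244; 0.0352 with no filter on dim genes, 0.0527 with only the groups compared in the fit, and up to 0.0788 without 1 of 5 arrays: obese FB 2 and 3, obese FBC 1, 2 and 4). Cxcr2 was above the array median on 6 arrays, all of them FB (4 lean and 2 obese), so it entered the test only through the population where it was high, and on FBC arrays it was near the dim end. Its lean arrays stood at 6.26, 6.48, 6.32 and 6.31 in FB and 5.79, 5.44, 4.70 and 4.64 in FBC. The count was 2 without obese FBC array 2, and 3 without obese FB array 4 or obese FBC array 3. It was 9 with the replicate block, where Ccl8 (1.21, adjusted p = 0.0310), Ccl17 (0.80, 0.0282), Cxcr4 (-0.84, 0.0109) and Ackr3 (1.36, 0.0255) were added, and 9 with the same genes without both lean arrays numbered 4. That block joins arrays of the same number over both genotypes, which are different mice. Of the same-numbered obese FB and FBC arrays, only those of number 1 deviated together. The count over all genes in obese mice under these settings is not given here. Ccl17, at 5.50 to 6.44 in obese FB and 6.58 to 6.94 in obese FBC, did not overlap, and its difference of 0.80 ± 0.28 had an adjusted p of 0.0823 (0.0194 to 0.199 over 25 alternatives, 7 of which passed).

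**Figure D4:**
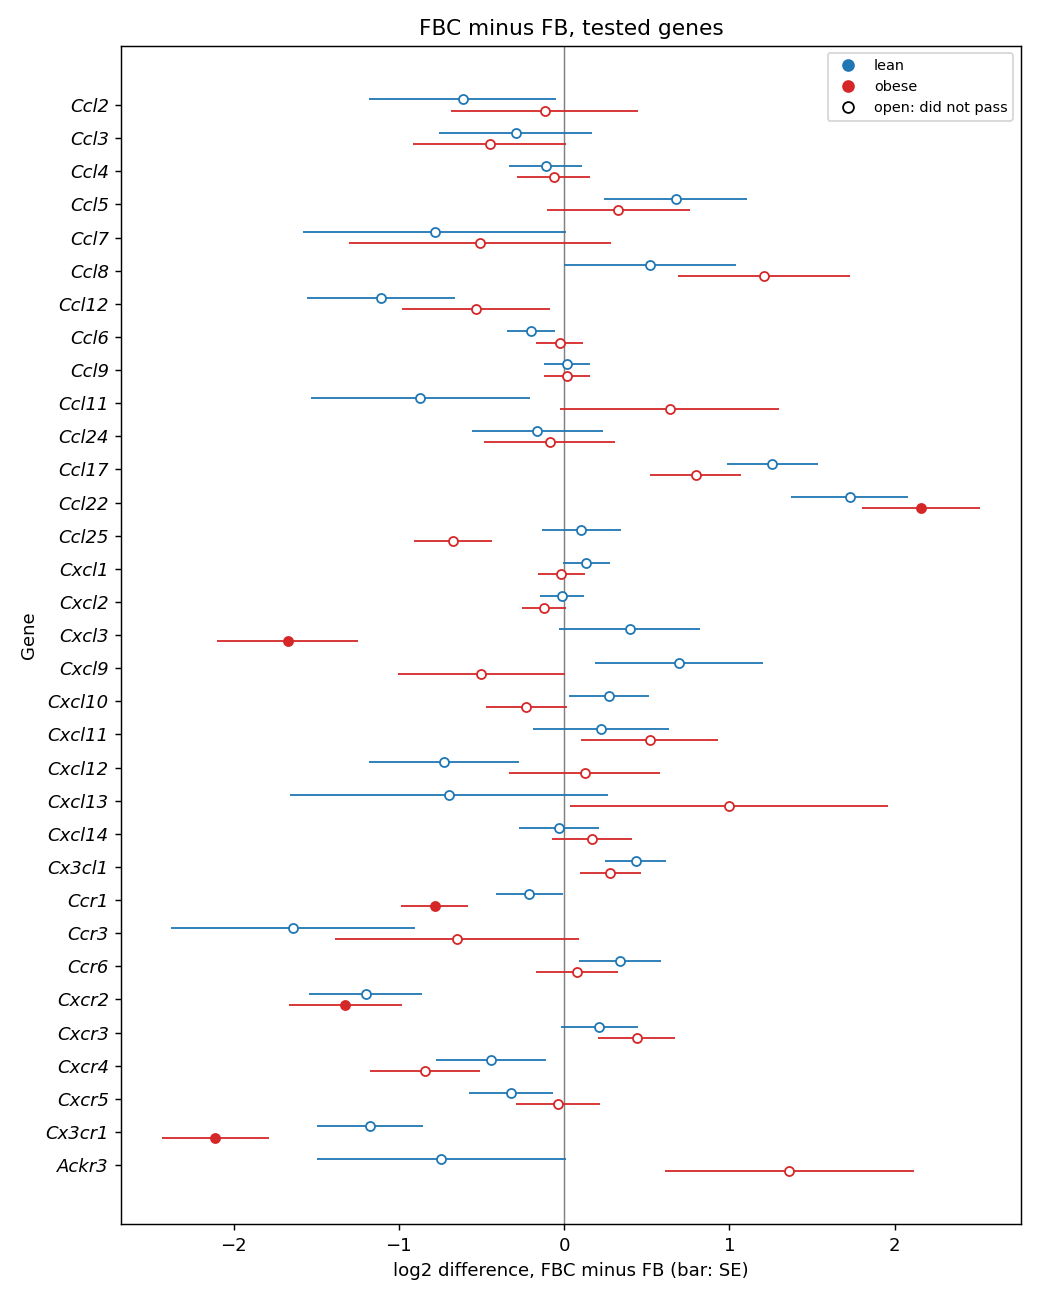
Difference between FBC and FB in log2(intensity + 16) for the 33 tested genes, in lean (blue) and obese (red) mice; bars are standard errors and filled points passed an adjusted p of 0.05. Ccl22 is the 1 filled point to the right, Cxcl3, Ccr1, Cxcr2 and Cx3cr1 are filled to the left, and no lean point is filled.

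Markers of other cell types moved with several of these genes, and in RNA of pooled sorted cells fewer cells of a type and less RNA per cell cannot be told apart. Of 11 fibroblast markers, 5 fell in obese FB (among them Dcn at -2.86 and Pdgfra at -2.30) and 0 passed in FBC. Their summed intensity was 18132, 25688, 21627 and 3194 on the lean FB arrays and 2243 to 3222 on the obese FB arrays. In FBC it was 12043, 15604, 15419 and 1828 on the lean arrays and 2788, 10863, 14112 and 4682 on the obese ones.

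The arrays low in this sum, both lean arrays numbered 4, were the lowest lean arrays in Cxcl12, Ackr3, Ccl11, Ccl7 and Cxcl13. Obese FBC arrays 2 and 3, high in the sum, were the highest obese FBC arrays in Cxcl12, Ackr3, Ccl11 and Cxcl13, but the lowest in Ccl7 (7.69 and 7.46). Ccl17 was not low on the lean arrays numbered 4 (8.88 in FB and 10.72 in FBC). The part of fibroblasts in these differences was not tested.

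**Figure D5:**
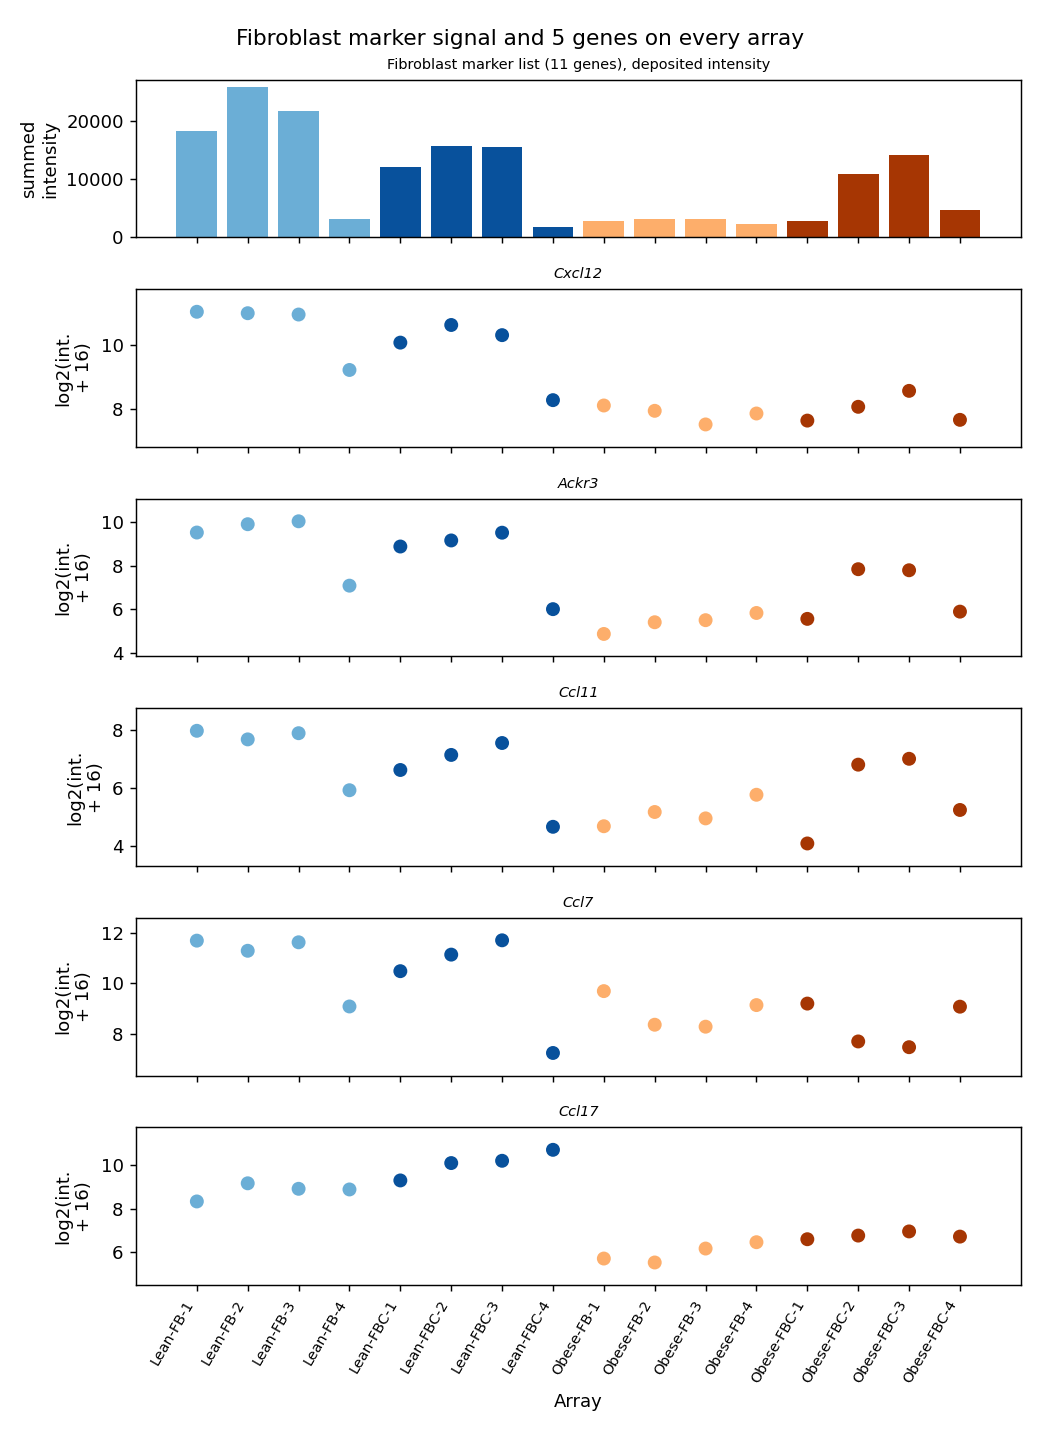
Top: summed deposited intensity of 11 fibroblast markers on each of the 16 arrays (bars, linear scale from 0). Below: log2(intensity + 16) of Cxcl12, Ackr3, Ccl11, Ccl7 and Ccl17 on the same arrays, coloured by group; the lean arrays numbered 4 are low in the sum and in the first 4 genes and not in Ccl17.

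Several dendritic cell markers moved with Ccl17 and Ccl22, but Flt3 did not. Of 9 tested, 5 fell in obese FB and 6 in obese FBC, and 2, Ccr7 and Fscn1, passed as higher in FBC under both genotypes. Flt3 was higher by 0.98 in obese FB, and higher in obese FBC too, without passing (adjusted p by limma 0.119 and 0.0697). The other tested markers were lower on average in obese mice, Dpp4 only by -0.31 in FB and -0.11 in FBC. The summed intensity of the list was 3339 to 4408 in lean FB and 1218 to 1750 in obese FB. It was 7516 to 14319 in lean FBC and 3678 to 6228 in obese FBC. In lean FBC the brightest gene of the list was Fscn1, at 11.95 to 12.76. Xcr1 was below the array median on all arrays. Of the T and NK cell markers, set beside Ccl5 and Cxcr3, 1 of 4 tested fell in each population, Cd2 (-2.86 in FB and -3.40 in FBC). The other tested ones did not pass: Klrd1 differed by -0.08 in FB and 0.17 in FBC, Gzma by -0.09 and 0.04, and Nkg7 by -0.49 and 0.16. Cd3d, Cd3e and Ncr1 were below the array median on all arrays. The sums of the list were 871 to 1612 in lean FB, 668 to 919 in obese FB, 1338 to 3581 in lean FBC and 1324 to 1759 in obese FBC. On lean FBC array 4, which had the highest sum, Klrd1 was the brightest of the list at 11.39.

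Of 6 tested monocyte markers, 3 rose in obese FB, where Cx3cr1 rose too. In obese FBC, where Cx3cr1 measured 0.86 above lean, 2 of them fell, Ccr2 (-0.86) and Fn1 (-1.09), and all 6, like Cx3cr1, were lower in FBC than in FB of obese mice. Their sums were 18440 to 45518 in lean FB, where array 4 was the highest, 38643 to 46015 in obese FB, 16204 to 25285 in lean FBC and 9306 to 10587 in obese FBC. Of the 6 tested neutrophil markers, a list that holds Cxcr2 itself, 4 were lower in FBC than in FB of obese mice: S100a8, S100a9, Mmp8 and Cxcr2. As given above, Cxcr2 entered the test only through FB arrays. In obese against lean mice Mmp8 rose in FB (1.87) and Mmp9 fell in FB (-2.80) and FBC (-2.92). The neutrophil sums were 1145 to 4402 in obese FB and 492 to 1597 in obese FBC. In lean mice they were 5246 to 6663 in FB and 776 to 3340 in FBC, so FBC was lower there too. Of the 6 markers, 1 passed as lower in lean FBC than in lean FB, S100a8 (-3.11, adjusted p by limma 0.0394). Of the 2 tested eosinophil markers, Siglecf and Ccr3, Siglecf fell in obese FBC (-2.47, adjusted p = 0.0388), as did the eosinophil ligand Ccl24. Of the tested mesothelial, endothelial, adipocyte, B cell and mast cell markers (6, 3, 4, 3 and 3 genes), 4 in all fell in obese FB and 2 fell and 1 rose in obese FBC. The part of these cell types in the differences was not tested.

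Of 21 further ligands and receptors, 12 were tested: 0 passed in obese against lean FB by limma, and in FBC 1 rose, Cxcl16, the ligand of Cxcr6 (0.73, adjusted p = 0.0405), and 1 fell, Ccr2, the Ccl2 receptor (-0.86, adjusted p = 0.00304). In FB, Ccr2 stood at 12.39 ± 0.11 in obese and 12.08 ± 0.23 in lean mice (SD, n = 4), a difference of 0.31 ± 0.17 that did not pass (adjusted p = 0.322). It was lower in FBC than in FB of obese mice (-1.25, adjusted p = 0.000327), as was the platelet chemokine Ppbp (-0.96, adjusted p = 0.0288). Ccr7, the receptor of Ccl19 that guides dendritic cells to lymph nodes, stood higher in FBC by 2.07 in lean (adjusted p = 0.0348) and by 1.99 in obese mice (0.00424). The median difference of the 12 was 0.12 in FB and -0.22 in FBC, beside 0.03 and 0.08 over all genes.

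Of 37 genes of the signalling path below the receptors, 32 were tested. In FB 0 passed; in FBC the G protein subunit Gng2 (0.96, adjusted p = 0.0489) and the kinase Ptk2b (1.06, adjusted p = 0.00845) rose in obese mice and the kinase Fgr fell (-1.16, adjusted p = 0.0215). In obese mice Fgr (-1.96, adjusted p = 0.00112) and the receptor kinase Grk3 (-1.26, adjusted p = 0.0326) were lower in FBC than in FB. The median difference of the 32 was 0.08 in FB and 0.03 in FBC.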

How the data were processed

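RNA of sorted adipose tissue macrophages was measured on 16 arrays. The authors deposited 1 linear intensity for each probe set. The submitters' processing notes name Affymetrix Expression Console, and the 2% trimmed mean was 250 on every array. How probes were summarized, with which version and on which genome build is not given in the sources used here. Of 45101 probe sets, 64 were controls, 34945 carried 1 symbol in the platform annotation, 932 several and 9160 none, and those with several or none were not used.

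Values were taken as log2(intensity + 16) and quantile-normalized. One limma model of the 4 groups (lmFit and eBayes, 12 residual and 16.5 total degrees of freedom) gave the obesity difference in each population, the population difference in each genotype and the interaction. Genes and their filter are given above, and p-values were adjusted over all genes tested. The code was tested on simulated data with known changes. Fits used limma 3.58.1 in R 4.3.3, and figures used matplotlib 3.10.9 in Python 3.11.15. Each group's precision is limited by its 4 arrays, and no detection calls came with the values.

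The members, role lists, marker lists and pathway lists were chosen with earlier results of these data known. All 39 members are accounted for: those that passed in at least 1 comparison by their value on every array, the other tested ones by differences or group means, and the rest by name. Alternatives changed the normalization, pseudocount, dim-gene filter, probe set rule, weights, variance settings, RNA quality terms, pairing and arrays used. No 2 of the 120 array pairs held identical values. The replicate numbers were checked for pairing. Deviations from the group means of same-numbered FB and FBC arrays correlated at 0.14, 0.23, 0.30 and 0.60 in lean mice, all above the limit of 0.1 used here for pairing, although lean FB array 1 matched number 3 best, and at 0.31, 0.03, -0.03 and -0.14 in obese mice, which do not pair. Lean and obese FBC arrays of numbers 2 to 4, which are different mice, correlated at 0.13, 0.28 and 0.14, and FB arrays of number 4 at 0.19. The limit of 0.1 thus does not separate arrays of the same mice from arrays of different mice. The replicate block gave arrays of the same number a shared term over both genotypes. Labels state that both populations came from the same mice without saying which number is which mouse.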

Additional observations from a re-analysis of the deposited data

Results flagged for a closer look

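Of 132 groups of 4 arrays examined, 18 had 1 array far from the other 3, where chance gives about 1 in 20 groups, and 12 of the 18 were lean arrays numbered 4. All values are log2(intensity + 16), with the range of the other 3 arrays of the group in brackets. Lean FB array 4 was low in the monocyte ligands Ccl2 at 10.04 (11.84 to 12.17), Ccl7 at 9.08 (11.28 to 11.69), Ccl8 at 8.96 (10.77 to 11.14) and Ccl12 at 8.80 (9.82 to 9.99). It was also low in Ccl3 at 11.06 (12.60 to 12.76), Ccl11 at 5.92 (7.67 to 7.96) and Cxcl12 at 9.22 (10.94 to 11.02). The same array was high in Cxcl14 at 6.15 (5.77 to 5.81), Ccr3 at 9.43 (5.31 to 5.86) and Cx3cr1 at 9.44 (8.75 to 8.83). Lean FBC array 4 was high in Cx3cl1 at 6.68 (6.16 to 6.21) and low in Ccr1 at 10.81 (11.53 to 11.66).

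Lean FBC array 1 was low in Ccl5 at 11.29 (11.78 to 11.86). Obese FBC array 1 was low in Cxcl10 at 10.51 (11.30 to 11.40) and Ccr6 at 5.87 (6.19 to 6.20). Obese FBC array 3 was low in Ccl24 at 5.87 (6.60 to 6.68) and obese FB array 3 in Cxcl13 at 4.22 (6.20 to 6.32). Obese FB array 4 was high in Cxcl3 at 11.67 (9.88 to 10.16).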

How the results depend on the processing

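Over 27 calls of chemokine and receptor genes and 674 values under other settings, 626 kept direction and threshold, 48 lost the threshold and 0 reversed, and 18 calls kept the threshold in every setting run. For obese against lean FB, 12 genes passed, 19 with array weights, and 8 to 14 with 1 array left out. For obese against lean FBC, 10 passed, 20 with array weights, 18 without the arrays of high actin ratio, 17 without both lean arrays numbered 4 (chosen after seeing the data), and 8 to 16 with 1 array left out. For FBC against FB in lean mice, 0 passed, 1 with the filter at the 60th percentile or the trend and robust variance settings, 4 with array weights, 0 to 1 with 1 array left out, and 2 each with median centring, the replicate block, the mouse as a random block or the actin ratio as a covariate. In obese mice 5 passed, 9 each with the replicate block and without both lean arrays numbered 4, and 2 to 4 with 1 array left out. For the interaction 0 passed, 2 with array weights, 1 with the replicate block and 0 with 1 array left out. The block gave 13 genes in FB and 10 in FBC. No share over all genes is given here for these 13 and 10 or for the counts with 1 array left out. For the other settings in lean mice, a count over all genes is given only with the block and with array weights. Where it is missing, the counts are not shown to exceed those of all genes. The count over all genes moved too: in FB from 701 to 1967 without both lean arrays numbered 4, 2032 without the arrays of high actin ratio and 3987 with array weights, in lean mice from 23 to 51 with the block and 1324 with array weights, and for the interaction from 19 to 230 and 1536. In FBC it moved from 1675 to 2096 without both lean arrays numbered 4. For FBC no count over all genes is given here with array weights or without the arrays of high actin ratio, so the 20 and 18 stand without a share. The cause was not tested. Array signal sets limits at both ends: 5 of the 38 genes were too dim to test, and Cxcl1, Cxcl2, Ccl6 and Ccl9 lay near the highest value of the scale.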
